A study of Mus musculus with 4 samples.

Results

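ATF4 amino-acid and integrated stress genes are 41 genes that the transcription factor ATF4 and its partners are known to govern, out of 54838 genes listed for each of 4 RNA libraries. The libraries were made from Hepa1-6 cells, an established line from a mouse liver tumour (hepatocellular carcinoma). The members were found by gene symbol. For 40 of them the symbol stood in the tables, and Mars1, the methionyl-tRNA synthetase gene, was found as Mars through RefSeq's synonyms. Ddit3 has a second entry made of 1 short transcript, which had 0 counts in every library and was not used further. The NC group holds 2 libraries with the genotype Acvr2a Wild type, and the KO group holds 2 libraries with the genotype Acvr2a knockout. No treatment, time point or selection is given for either group. The design text speaks of knockout subclones without saying whether KO 1 and KO 2 are separate clones, so the loss of Acvr2a and a difference between clones of the line cannot be told apart. Nothing says that libraries of a group came from separate cultures, and p-values therefore measure only the spread between these libraries, which may be technical.

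The integrated stress response begins when a kinase, among them PERK in the endoplasmic reticulum and GCN2 on uncharged tRNA, phosphorylates the translation factor eIF2. Most protein synthesis then slows, while the ATF4 messenger RNA is translated more. ATF4 pairs with C/EBP proteins and switches on amino-acid transporters, enzymes of serine, asparagine and proline synthesis, tRNA synthetases and a second tier of regulators such as CHOP (Ddit3), ATF3, TRIB3 and GADD34 (Ppp1r15a), the last of which helps to remove the phosphate from eIF2 again. Because ATF4 is controlled largely in translation, its messenger RNA does not measure its activity.

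Library totals lay between 11597923 and 13910582 counts. Acvr2a itself, which encodes an activin receptor, was at 7.13 and 7.80 CPM (read counts scaled to a common library size and composition) in NC and at 5.69 and 7.18 CPM in KO, so its total RNA did not separate the groups (log2 fold change -0.21, SE 0.20, edgeR quasi-likelihood adjusted p = 0.433), and the group names follow the labels. Of 8 markers of the labelled cell type, Alb, Trf, Krt8, Krt18, Afp and Hnf4a were well read, whereas Ttr had at most 1 count in any library and Apoa1 had 17 to 39. The summed level of those 8 markers was 2469 to 2578 TPM (a level scaled for both transcript length and library size) in NC and 2836 to 2981 in KO, but the genes behind it went in opposite directions. Alb (log2 fold change 0.41, SE 0.10) and Trf (0.54, SE 0.09) were higher in KO. Afp, at 281.1 and 253.8 CPM in NC and 114.4 and 116.1 in KO (-1.21, SE 0.09, adjusted p = 1.01e-10), and Hnf4a, at 216.7 and 227.0 CPM in NC and 116.5 and 106.1 in KO (-0.995, SE 0.09, adjusted p = 4.27e-09), were lower. Krt8, Krt18 and Apoa1 did not pass. The 7 leukocyte markers summed to 24.3 and 28.2 TPM in NC and to 56.7 and 68.2 in KO, most of it Cd68, with Cd3e and Tyrobp at 0 counts. Among 6 endothelial markers (6.03 to 6.31 TPM in NC, 14.9 to 17.0 in KO) Cdh5 and Tek had 0 counts, and among 6 fibroblast markers (1032 to 1094 TPM in NC, 1229 to 1234 in KO, most of it Dcn) Col3a1 and Lum had 0. The part of these markers in the results was not tested. In RNA from whole cultures, fewer cells of a kind and less RNA per cell cannot be told apart.

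The element through which ATF4 and C/EBP partners bind DNA has the core TGATGNAA, where N is any base. It was looked for on both strands of the RefSeq promoter windows, which run from 250 bases before a gene's start to 50 after it (GRCm38.p6). Windows were given for 33 members, and 14 of these (42.4%) held the core, against 4.51% of 27025 genes in the table. The stricter form TGATGCAA, which is contained in the first, occurred in 11 members (33.3%) and in 1.03% of all genes. Since the members were listed as ATF4 targets in the first place, this excess is a description of the list. The windows below are shown because the core stands before the RefSeq starts of genes that moved in opposite directions. Those of Asns and Gars hold the core but not its stricter form. They are written 5′ to 3′ along the gene, with the core or its reverse complement in capitals. The first 5 belong to genes that were higher in KO.
Atf3: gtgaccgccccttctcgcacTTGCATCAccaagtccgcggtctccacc
Nupr1: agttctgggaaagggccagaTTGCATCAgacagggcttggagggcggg
Chac1: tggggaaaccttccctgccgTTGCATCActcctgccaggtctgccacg
Vldlr: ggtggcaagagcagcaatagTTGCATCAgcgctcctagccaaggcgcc
Pycr1: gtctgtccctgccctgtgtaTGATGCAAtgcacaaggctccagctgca
The next 5 belong to genes that were lower in KO.
Slc7a11: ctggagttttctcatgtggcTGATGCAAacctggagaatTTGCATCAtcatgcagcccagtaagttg
Asns: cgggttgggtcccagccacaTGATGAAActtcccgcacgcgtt
Gars: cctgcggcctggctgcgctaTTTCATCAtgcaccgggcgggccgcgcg
Aars: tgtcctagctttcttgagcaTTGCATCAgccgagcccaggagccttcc
Tars: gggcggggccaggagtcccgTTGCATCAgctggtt

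These windows lie at chr1:191183416-191183463 (minus strand) for Atf3, chr7:126625553-126625600 (minus) for Nupr1, chr2:119351029-119351076 (plus) for Chac1, chr19:27216800-27216847 (plus) for Vldlr and chr11:120643824-120643871 (minus) for Pycr1. Those of the lower genes lie at chr3:50443633-50443699 (minus) for Slc7a11, chr6:7693210-7693252 (minus) for Asns, chr6:55037951-55037998 (plus) for Gars, chr8:111033710-111033757 (plus) for Aars and chr15:11399659-11399693 (minus) for Tars. GENCODE M21 places some starts elsewhere: the windows of Atf3, Nupr1, Vldlr, Asns and Aars lie inside its gene spans, and that of Tars in part. Slc7a11 carries the core as a pair in opposite orientations. The core also occurred in the windows of Trib3, Slc1a4 and Yars, which did not pass the test, and of Fgf21, which had no reads. Of the 13 genes with the core that were tested, 5 were therefore higher, 5 were lower and 3 did not pass. For the stricter form the counts were 5 higher, 3 lower and 2 that did not pass. Among all genes tested 19.7% were higher and 18.2% lower, and the difference from these shares was not tested. An 8-letter cyclic-AMP response element, TGACGTCA, was found in 1 member window, that of Ppp1r15a, and in 2.03% of all genes. Eif4ebp1, Cth, Slc7a5, Slc7a3, Slc1a5, Wars, Nars and Cars were not in the promoter table.

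The set did not move as a unit. The stress factors Atf3, Ddit3 and Ppp1r15a were 2.23- to 3.11-fold higher in KO. The serine and one-carbon enzymes Phgdh, Psat1, Shmt2 and Mthfd2 were at 0.589 to 0.682 times their NC level, whereas Psph of the same group did not pass. Lower by smaller amounts were 7 of 10 tRNA synthetase genes. Of the 41 members 39 had enough reads to be tested, and 27 passed an adjusted p of 0.05 (edgeR quasi-likelihood, adjusted over all 12510 genes tested), 11 higher and 16 lower in KO. Among all genes tested the same rule called 37.9%, 19.7% higher and 18.2% lower. The CPM of the groups did not overlap for 34 of the 39 members, where this held for 69.4% of all genes. Adjusted p-values of single genes below come from that fit, and every log2 fold change is KO against NC. The median absolute log2 fold change was 0.40 over the 39 members and 0.28 over all genes. The 2 NC libraries differed by a median of 0.075 on the log2 CPM scale over the members and the 2 KO libraries by 0.14. Without NC 2 the number of members called fell to 18, of which 8 were higher and 10 lower. Under limma on log2(TPM + 1) it was 12, with 8 higher and 4 lower, so that 66.7% of the calls were rises against 40.7% in the count fit. Over all genes that share was 68.0% against 51.9%.

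**Figure D1:**
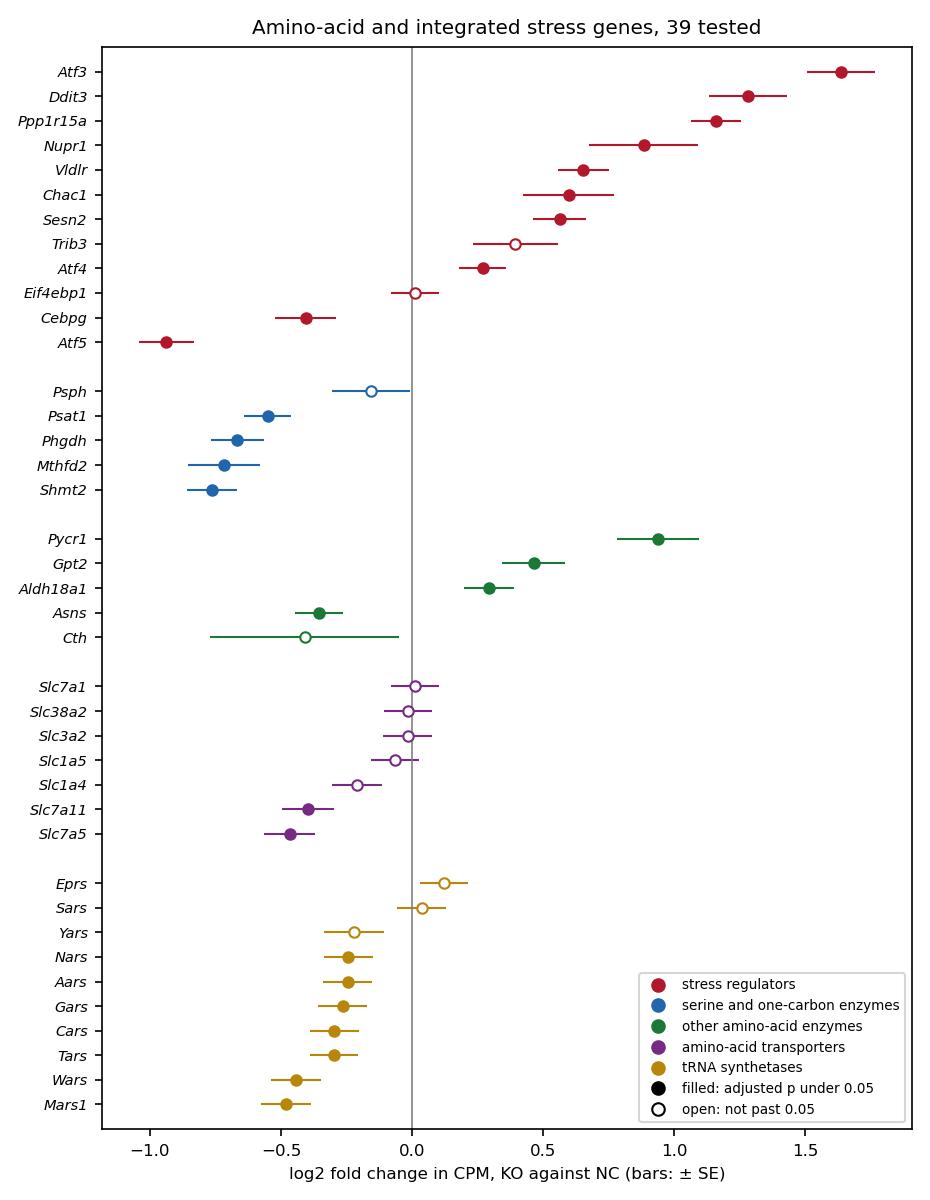
Log2 fold change (x axis, KO against NC, from counts) of the 39 tested members with its standard error, grouped by role. Filled points passed an adjusted p of 0.05. The stress regulators reach from -0.94 (Atf5) to 1.64 (Atf3), and the 5 serine and one-carbon enzymes all lie below 0.

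Stress regulators were mostly higher in KO. Of the 13 genes 12 were tested, 8 were higher, 2 were lower and 2 did not pass, with a median log2 fold change of 0.58 against -0.0037 for all genes tested. Calls made up 83.3% of those tested, against 37.9% over all genes. Atf4, the factor at the head of the response (chromosome 15, 80255184 to 80257541, GRCm38, GENCODE M21), had 202.7 and 187.2 CPM in NC and 232.6 and 237.2 CPM in KO. Both KO libraries were above both NC libraries, with a log2 fold change of 0.27 and an SE of 0.09 (adjusted p = 0.0203). That call was lost without NC 2 (log2 fold change 0.21, adjusted p = 0.199), without KO 2 (0.25, adjusted p = 0.0554) and under limma on log2(TPM + 1) (0.32, adjusted p = 0.0574).

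The largest rise among the members belonged to Atf3, a stress-induced factor of the same bZIP family (chromosome 1, 191170296 to 191218039). Its level was 12.2 and 12.3 CPM in NC and 39.6 and 36.7 CPM in KO. The log2 fold change was 1.64 (SE 0.13, adjusted p = 1.69e-10), a 3.11-fold difference that is far wider than the gap between libraries of a group. Ddit3, which encodes the pro-apoptotic factor CHOP (chromosome 10, 127290774 to 127296288), had 14.6 and 10.4 CPM in NC and 31.2 and 29.1 CPM in KO. The rise was 1.28 in log2 units (SE 0.15, adjusted p = 1.30e-07). The last 68 bases of Ddit3 overlap exons of Mars on the other strand, and whether the authors' counting kept the strands apart is not given in the sources used here. The phosphatase subunit gene Ppp1r15a (chromosome 7, 45522916 to 45526268) was at 52.3 and 51.2 CPM in NC and at 117.0 and 113.9 CPM in KO. It rose by 1.16 (SE 0.09, adjusted p = 3.28e-10) and in both groups its libraries lay closer together than those of Ddit3.

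Among the other stress genes, Sesn2, Chac1, Nupr1 and Vldlr were higher in KO, and Trib3 and Eif4ebp1 did not pass. Sesn2, which restrains mTORC1 when leucine is short, had 41.1 and 41.1 CPM in NC and 62.9 and 58.4 CPM in KO (log2 fold change 0.56, SE 0.10, adjusted p = 7.45e-05). Chac1, a glutathione-degrading enzyme, had 7.92 and 7.51 CPM in NC and 11.8 and 11.5 CPM in KO (log2 fold change 0.60, SE 0.17, adjusted p = 0.00750). The libraries of each of these genes separated by group, but the Chac1 call was lost with DESeq2 (adjusted p = 0.115) and without NC 2 (adjusted p = 0.0545). Nupr1, a small stress-induced chromatin protein, had 7.13 and 4.48 CPM in NC and 10.02 and 11.1 CPM in KO. The log2 fold change, 0.88 with an SE of 0.21 (adjusted p = 0.00135), became 0.57 without NC 2 (adjusted p = 0.0604), since NC 2 was the lower of an NC pair that lay 0.65 apart on the log2 scale. The lipoprotein receptor gene Vldlr had 54.3 and 55.9 CPM in NC and 82.1 and 91.2 CPM in KO (log2 fold change 0.65, SE 0.10, adjusted p = 7.31e-06). Trib3, a pseudokinase that feeds back on ATF4, had 11.3 and 10.7 CPM in NC and 16.1 and 12.7 CPM in KO. It missed the threshold (log2 fold change 0.39, SE 0.16, adjusted p = 0.0537). Trib3 was called higher with upper-quartile scaling and robust fitting, but not with RLE scaling, no filter on low counts, DESeq2 or the TPM scale. Eif4ebp1, an inhibitor of cap-dependent translation, differed by 0.012 (SE 0.09, 95% interval -0.18 to 0.20), a value that changed sign with no filter on low counts and on the TPM scale. Fgf21, a secreted stress hormone of liver, had 0 counts in every library.

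**Figure D2:**
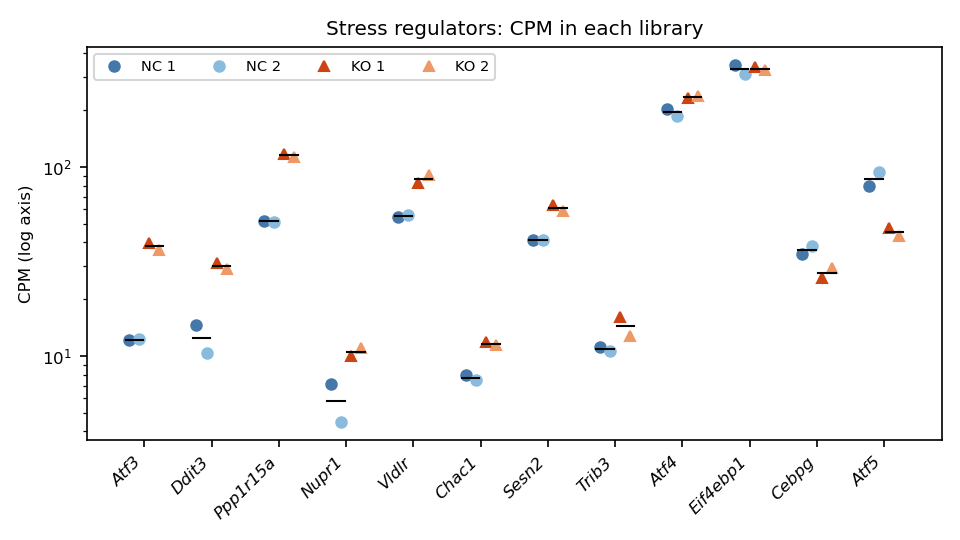
CPM (y axis, log scale) of the 12 tested stress regulators in each library, with the mean of each group as a line. The KO triangles of Atf3, Ddit3 and Ppp1r15a stand clear of the NC circles, while those of Cebpg and Atf5 lie below them.

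The other 2 called genes of the group went the other way. Atf5, a bZIP factor that takes part in the mitochondrial unfolded-protein response (chromosome 7, 44812256 to 44816658), had 79.6 and 94.5 CPM in NC and 48.0 and 43.1 CPM in KO. The log2 fold change was -0.94 (SE 0.10, adjusted p = 7.83e-08), which is the largest fall among the members. Up to 82 bases of its exons overlap those of Nup62 and Il4i1 on the other strand. Cebpg, a C/EBP partner of ATF4, had 34.9 and 38.3 CPM in NC and 25.8 and 29.5 CPM in KO (log2 fold change -0.41, SE 0.12, adjusted p = 0.00666). The groups did not overlap for Atf5 or for Cebpg. Exons of Cebpg share up to 73 bases with those of Gm44836 on the same strand and Gm45095 on the other. Without NC 2 the number of stress regulators called was 6 in place of 10. For Cebpg the call was lost with DESeq2 (adjusted p = 0.0580), without NC 2, without KO 1 and on the TPM scale.

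Genes of serine and one-carbon metabolism were lower in KO. This pathway makes serine from a glycolytic intermediate (Phgdh, Psat1 and Psph in that order) and passes its carbon to folate in mitochondria (Shmt2 and Mthfd2). Of the 5 genes 4 were lower and 1 did not pass, with a median log2 fold change of -0.67. This is 80% called, against 37.9% of all genes tested. Phgdh (chromosome 3, 98313170 to 98339990) had 1032 and 929.2 CPM in NC and 675.4 and 560.2 CPM in KO (log2 fold change -0.67, SE 0.10, adjusted p = 9.75e-06). Psat1 had 285.6 and 266.8 CPM in NC and 185.5 and 191.3 CPM in KO (log2 fold change -0.55, SE 0.09, adjusted p = 2.69e-05). In neither gene did a KO library reach the lower NC library. Psph, the last step, had 23.6 and 16.8 CPM in NC and 18.9 and 17.1 CPM in KO, and the groups overlapped (log2 fold change -0.16, SE 0.15, 95% interval -0.46 to 0.15, adjusted p = 0.434). Without NC 1 its value was 0.090. The estimated counts of Psph were not whole numbers in any library, and those of Phgdh differed from whole numbers by hundredths of a count. Whether reads were shared with similar genes was not tested. Psph also shares 452 bases of exon with Cct6a on the other strand, and its total is uncertain for that reason.

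The mitochondrial steps showed the same direction. Shmt2 (chromosome 10, 127517123 to 127522444) had 326.8 and 339.8 CPM in NC and 214.4 and 178.0 CPM in KO (log2 fold change -0.76, SE 0.10, adjusted p = 6.43e-07). Mthfd2 (chromosome 6, 83305691 to 83325908) had 28.2 and 35.0 CPM in NC and 21.5 and 17.1 CPM in KO (log2 fold change -0.72, SE 0.14, adjusted p = 1.67e-04). Exons of Shmt2 overlap 32 bases of Ndufa4l2 on the other strand. For both genes KO 2 was the lowest of the 4 libraries. All 4 calls of the group held when any 1 library was left out and in the count-based alternatives. On the log2(TPM + 1) scale that of Mthfd2 was lost (adjusted p = 0.0881).

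Of the 5 other amino-acid enzymes 3 were higher, 1 was lower and 1 did not pass, which is 80% called against 37.9% of all genes. Aldh18a1 and Pycr1, which make proline from glutamate, were higher in KO, as was Gpt2, the mitochondrial alanine transaminase, whereas Asns, asparagine synthetase, was lower. Pycr1 (chromosome 11, 120635712 to 120643769) had 12.8 and 11.55 CPM in NC and 19.6 and 27.0 CPM in KO (log2 fold change 0.94, SE 0.16, adjusted p = 3.02e-05). The KO pair lay 0.46 apart on the log2 scale, the widest gap between KO libraries among the members. Aldh18a1 had 79.3 and 88.8 CPM in NC and 104.4 and 101.6 CPM in KO (log2 fold change 0.29, SE 0.09, adjusted p = 0.0156), a call that was lost with DESeq2 (adjusted p = 0.0577) and without NC 1. Gpt2 had 22.3 and 21.8 CPM in NC and 30.3 and 30.6 CPM in KO (log2 fold change 0.46, SE 0.12, adjusted p = 0.00332).

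Asns (chromosome 6, 7675169 to 7693254) had 185.3 and 193.8 CPM in NC and 143.0 and 153.2 CPM in KO (log2 fold change -0.36, SE 0.09, adjusted p = 0.00299). Its groups did not overlap. The gene is a standard readout of ATF4, and it moved opposite to Atf3, Ddit3 and Chac1 in the same libraries. Cth, which makes cysteine from cystathionine, was read 22 to 31 times per library and did not pass (log2 fold change -0.41, SE 0.36, 95% interval -1.15 to 0.33). On the log2(TPM + 1) scale Pycr1 was the 1 gene of these 5 that passed (adjusted p = 0.0126), and the adjusted p was 0.0639 for Gpt2, 0.0950 for Asns and 0.193 for Aldh18a1.

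**Figure D3:**
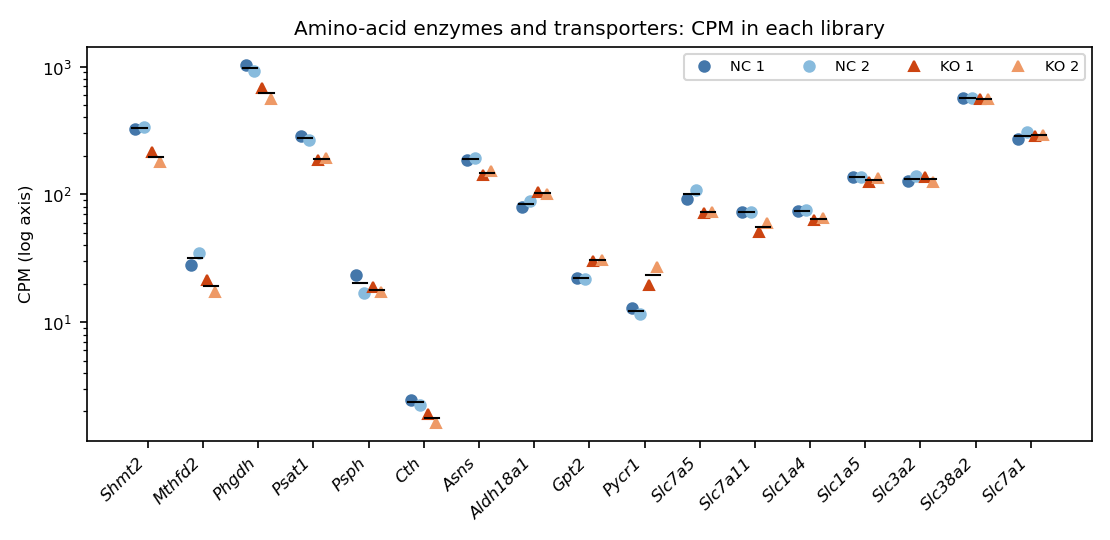
CPM (y axis, log scale) of the 17 tested amino-acid enzymes and transporters in each library, with group means as lines. Shmt2, Mthfd2, Phgdh and Psat1 lie lower in KO, Aldh18a1, Gpt2 and Pycr1 higher, and most transporters at about the same height in all 4 libraries.

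Most transporters did not pass the test. Of 8 genes 7 were tested, 2 were lower and 5 did not pass. The share called was 28.6%, against 37.9% of all genes, and with 7 genes this difference was not tested. Slc7a5, the large neutral amino-acid exchanger LAT1 (chromosome 8, 121881150 to 121907694), had 91.8 and 108.7 CPM in NC and 72.0 and 73.2 CPM in KO (log2 fold change -0.47, SE 0.10, adjusted p = 4.63e-04). Slc7a11, the cystine-glutamate exchanger xCT (chromosome 3, 49892526 to 50443614), had 72.3 and 73.3 CPM in NC and 51.0 and 59.5 CPM in KO (log2 fold change -0.40, SE 0.10, adjusted p = 0.00243). Both are light chains that reach the membrane bound to the heavy chain encoded by Slc3a2. Slc3a2 had 126.7 and 138.1 CPM in NC and 137.2 and 124.7 CPM in KO, overlapping groups with a log2 fold change of -0.017 (SE 0.09, 95% interval -0.21 to 0.18). Both light-chain calls held in every count fit and were lost under limma on log2(TPM + 1), where the adjusted p was 0.0876 for Slc7a5 and 0.159 for Slc7a11.

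The 4 other tested transporters stayed within a log2 fold change of -0.21 to 0.011. Slc1a4, a neutral amino-acid transporter, was the nearest to a call (log2 fold change -0.21, SE 0.09, adjusted p = 0.0794). For the glutamine transporter gene Slc38a2 the value was -0.015 (95% interval -0.20 to 0.17) and for the cationic amino-acid transporter gene Slc7a1 0.011 (95% interval -0.18 to 0.20). Slc1a5, another glutamine carrier, had a value of -0.065 (95% interval -0.25 to 0.12). The sign of Slc3a2 and Slc38a2 turned with upper-quartile scaling and on the TPM scale, and that of Slc7a1 with no filter on low counts, so no direction is given for them. The median over all genes also moved, from -0.0037 to 0.022 with upper-quartile scaling and to 0.060 on log2(TPM + 1). Its part in these turns was not tested. Slc7a3 had 0 to 3 counts per library and was not tested.

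Cytosolic tRNA synthetase genes, which charge tRNAs with amino acids, were lower by modest amounts. Of 10 genes 7 were lower, 0 were higher and 3 did not pass, with a median log2 fold change of -0.26. Calls made up 70% of them, against 37.9% of all genes tested. Mars1, for methionine (chromosome 10, 127296221 to 127311786), had 94.9 and 96.8 CPM in NC and 72.6 and 64.9 CPM in KO (log2 fold change -0.48, SE 0.10, adjusted p = 2.60e-04). Wars, for tryptophan, had 121.1 and 115.2 CPM in NC and 91.2 and 82.7 CPM in KO (log2 fold change -0.44, SE 0.09, adjusted p = 5.10e-04). In both genes the groups were far enough apart for the call to hold without any 1 library. Tars, Cars, Gars, Aars and Nars, for threonine, cysteine, glycine, alanine and asparagine, had log2 fold changes between -0.30 and -0.24, with adjusted p from 0.0127 to 0.0408. Tars had 211.6 and 220.7 CPM in NC and 186.6 and 165.2 in KO, and Cars had 185.5 and 186.5 CPM in NC and 160.2 and 142.7 in KO. Gars had 484.1 and 488.4 CPM in NC and 423.5 and 385.7 in KO. For Aars the values were 192.1 and 198.9 CPM in NC and 177.2 and 152.4 in KO, and for Nars 263.5 and 287.8 CPM in NC and 246.8 and 219.2 in KO. In each of these 5 genes both KO libraries lay below both NC libraries. Over all genes tested the groups did not overlap, in either direction, for 69.4%. Sars, for serine, was at 0.037 (SE 0.09, 95% interval -0.15 to 0.23), Eprs, for glutamate and proline, at 0.12 (SE 0.09, 95% interval -0.07 to 0.31), and Yars, for tyrosine, at -0.22 (SE 0.11, adjusted p = 0.130).

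The number of synthetase calls varied with the libraries used. All 10 synthetase genes were lower in KO 2 than in KO 1, by a median of 0.17 on the log2 scale, where 49.2% of all genes were. In NC 2 9 of the 10 were higher than in NC 1, by a median of 0.043, where 49.8% of all genes were. Without KO 2 the count of synthetase calls fell from 7 to 2, and without NC 2 it was also 2, the median log2 fold change being -0.18 and -0.24. It was 5 without NC 1 and 8 without KO 1. Under limma on log2(TPM + 1) 0 of 10 passed, with a median difference of -0.20. The median over all genes was 0.060 on that scale, against -0.0037 in the count fit. Aars shares up to 1326 bases of exon with Exosc6 on the same strand and had estimated counts that were not whole numbers, so its total is uncertain. Exons of Yars overlap 30 bases of another gene on the other strand, and those of Cars 211 bases.

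TPM values divide the counts by the length of the transcripts that the authors' program assigned them to, and that length moved for some members. It varied among libraries for 34 of the 39 members read at least 10 times in every library. For 18 of these (52.9%) the lengths of the groups did not overlap, against 39.5% of 9655 genes of the same kind, and 11 were shorter and 7 longer in KO. As a ratio of KO to NC, Sars showed the largest shift of a tested member (0.851). Its mean transcript length was 1790 and 1675 bases in NC and 1522 and 1427 bases in KO. The counts of Sars were flat, so its TPM read 169.9 and 198.1 in NC against 249.4 and 224.2 in KO, a difference of 0.36 in log2(TPM + 1) that did not pass (adjusted p = 0.0671).

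Other members shifted less as a ratio, although Vldlr shifted by more bases. The mean length of Ppp1r15a was 777.2 and 923.7 bases in NC and 960.9 and 933.5 in KO, and its difference was 0.99 in log2(TPM + 1) against 1.16 from counts. Vldlr went from 5235 and 4728 bases to 4436 and 4601, and its difference was 0.81 in TPM against 0.65 from counts. Atf5 went from 1544 and 1390 bases to 1312 and 1373, and its fall was smaller in TPM, -0.71 against -0.94. These lengths come from the same reads as the counts and are given as the deposited estimates, with no test.

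**Figure D4:**
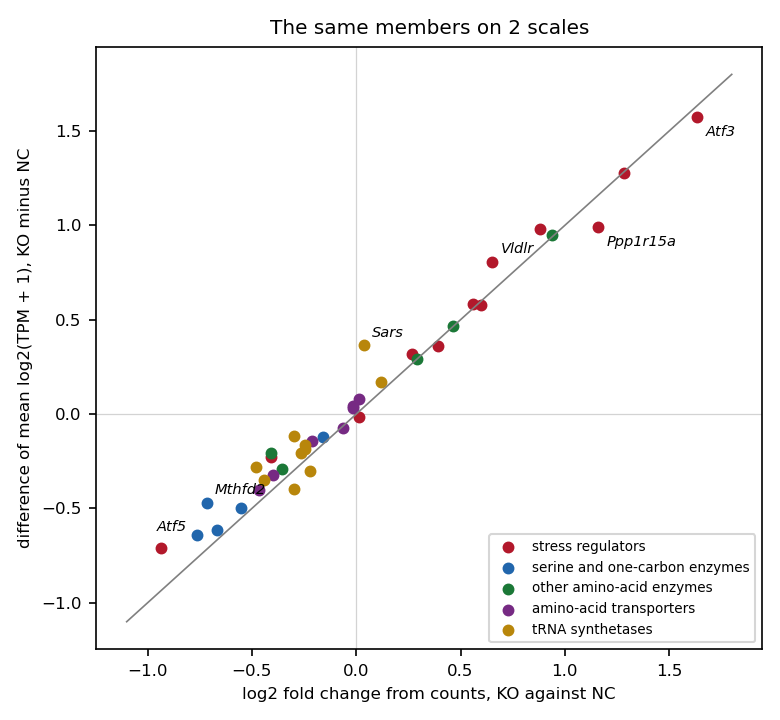
The difference of mean log2(TPM + 1) (y axis) against the log2 fold change from counts (x axis), KO against NC, for the 39 tested members. The diagonal marks equal values. Sars lies farthest above it, at 0.36 against 0.037, and Ppp1r15a farthest below it, at 0.99 against 1.16.

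Levels can be compared between genes in TPM. Phgdh had the highest level of all members, 671.2 and 637.9 TPM in NC and 479.7 and 379.9 TPM in KO, and Eif4ebp1 followed with 350.4 and 315.8 TPM in NC and 339.7 and 318.5 TPM in KO. The summed level of the serine and one-carbon enzymes was 1035 and 1019 TPM in NC and 750.1 and 616.3 TPM in KO. That of the stress regulators was 758.9 and 720.3 TPM in NC and 942.8 and 884.3 TPM in KO, so the order of the groups' sums changed between NC and KO. The synthetase sum overlapped between groups, at 989.4 and 1077 TPM in NC and 1058 and 893.5 TPM in KO, as did the transporter sum, at 411.6 and 449.4 TPM in NC and 429.1 and 414.2 TPM in KO. Atf4 at 140.4 to 180.5 TPM was far above Atf3 (7.45 to 26.3 TPM), Ddit3 (18.3 to 58.4 TPM) and Trib3 (6.70 to 10.5 TPM).

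Neighbouring steps of the pathway were read from 7 lists of other genes. Upstream, of 15 genes for eIF2 kinases, eIF2 and its exchange factor eIF2B, 2 were higher and 4 lower, and this 40.0% called is near the 37.9% of all genes. Eif2ak3, which encodes PERK, had 24.8 and 26.8 CPM in NC and 33.9 and 38.7 CPM in KO (log2 fold change 0.49, SE 0.12, adjusted p = 0.00155). The eIF2B subunit genes Eif2b5 (log2 fold change -0.40, SE 0.10), Eif2b1 (-0.34, SE 0.10) and Eif2b4 (-0.41, SE 0.13) were lower. Over 5 count-based alternatives the highest adjusted p of Eif2b1 was 0.0692 and that of Eif2b4 0.0926. The number called in this list was 3 without NC 1, 3 without KO 2 and 3 with DESeq2. Of 16 other unfolded-protein genes of the endoplasmic reticulum, 2 were higher and 4 lower, 37.5% called against the 37.9% of all genes. The chaperone gene Hspa5, for BiP, had 525.0 and 517.0 CPM in NC and 749.1 and 697.2 CPM in KO (log2 fold change 0.47, SE 0.09, adjusted p = 2.22e-04), whereas the sensor gene Ern1 (-0.53, SE 0.10), Manf (-0.32, SE 0.09) and Creld2 (-0.46, SE 0.15) were lower. Without NC 1 the number called in this list was 3.

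Of 20 other ATF4 targets and partners 17 were tested, 8 were higher and 3 lower, with a median log2 fold change of 0.071. The share called was 64.7%, against 37.9% of all genes. Ero1l, an oxidase of the endoplasmic reticulum, went from 131.8 and 137.5 CPM to 317.7 and 414.4 CPM (log2 fold change 1.44, SE 0.10). The stress cytokine gene Gdf15 (0.81, SE 0.12) and the C/EBP gene Cebpb (0.57, SE 0.11) were higher, and Pck2, the mitochondrial PEP carboxykinase, was lower (-0.48, SE 0.10). Of 14 further serine, glycine, folate and methionine-cycle genes 13 were tested, 5 were lower and 1 was higher. This 46.2% called stands against the 37.9% of all genes. Mthfd1 (-0.79, SE 0.11) and Shmt1 (-0.56, SE 0.11), of the cytosolic folate steps, and Gcsh (-0.80, SE 0.13), of glycine cleavage, were lower. The number called was 6 in every count fit. Cbs, the first enzyme from homocysteine towards cysteine, was higher (1.83, SE 0.30), from 18 and 24 counts in NC to 78 and 80 in KO.

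Of 13 further cytosolic synthetase and scaffold genes 7 were lower, 0 were higher and 6 did not pass, with a median of -0.25. The share called was 53.8%, against 37.9% of all genes. Hars, for histidine, had 91.3 and 86.7 CPM in NC and 69.7 and 61.1 CPM in KO (log2 fold change -0.44, SE 0.10, adjusted p = 6.86e-04). Vars (-0.38, SE 0.09) and the scaffold genes Aimp2 (-0.37, SE 0.09) and Eef1e1 (-0.46, SE 0.13) were also lower. The 7 calls became 4 without KO 2, 3 with DESeq2 and 0 under limma on log2(TPM + 1). Of 17 mitochondrial synthetase genes 3 were lower and 0 higher, with a median of -0.055 and 17.6% called against 37.9% of all genes. They were Yars2 (-0.85, SE 0.16), Ears2 (-0.52, SE 0.17) and Lars2 (-0.36, SE 0.11). The count was 1 without NC 1, 1 without KO 2 and 5 without KO 1.

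Of 18 further amino-acid transporters and sensors 14 were tested, 6 were higher, 1 was lower and 7 did not pass. The share called was 50%, against 37.9% of all genes. Slc38a3, a glutamine transporter of liver, had 2.73 and 2.09 CPM in NC and 9.49 and 12.3 CPM in KO (log2 fold change 2.19, SE 0.25, adjusted p = 5.34e-08). Slc38a4 (0.75, SE 0.12), Sesn3 (0.67, SE 0.12) and the lysosomal arginine sensor gene Slc38a9 (0.96, SE 0.21) were higher as well.

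**Figure D5:**
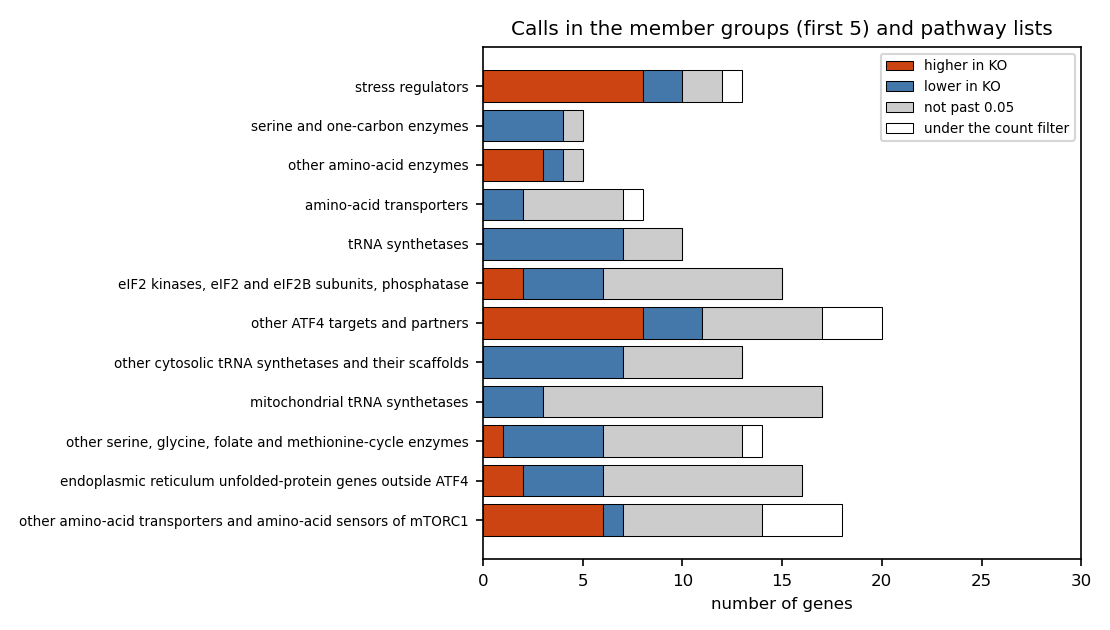
Number of genes (x axis) in each of the 5 member groups and 7 pathway lists that were higher, lower, not past an adjusted p of 0.05, or under the count filter. The calls among the 10 member synthetases and the 13 further cytosolic synthetase genes are falls only, 7 in each.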

How the data were processed

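RNA was sequenced from 2 NC and 2 KO samples of Hepa1-6. Per the labels' protocols, total RNA was extracted with TRIzol and libraries were made with a directional kit. The submitters' processing notes name FastQC, STAR, RSEM, DESeq2 and the builds GRCm38 and mm10, without roles or versions. Annotation release and strand setting are not given in the sources used here. Per the file headers, the authors deposited expected counts (estimated, not normalised) and TPM (scaled for length and depth) per gene and library, with the abundance-weighted transcript length. The authors' FPKM values were not used.

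The expected counts were rounded, which changed a library total by at most 0.000188%, filtered with edgeR's filterByExpr, scaled by TMM (0.981 to 1.02) and tested with edgeR's quasi-likelihood test, group being the only term (edgeR 4.0.16, R 4.3.3). P-values are two-sided, with Benjamini-Hochberg adjustment over 12510 genes. Alternatives used DESeq2 1.42.0 and limma 3.58.1 on log2(TPM + 1) and log2(TPM + 0.1). Fold changes on a log2(TPM + 1) scale understate those of low genes. The fit was tested on simulated counts in which all genes had the same relative spread. Of true log2 fold changes of 0.5 it called 56.9% with the right sign, DESeq2 26.9% and limma on log2(TPM + 1) 10.8%. For changes of 1 the shares were 83.3%, 66.1% and 61.7%. A gene that did not pass may therefore still have changed by such an amount if its interval reaches that far. Among the tested members that did not pass, this held for Cth (interval -1.15 to 0.33) and Trib3 (0.06 to 0.72). In the main fit the intervals of the others stayed between -0.46 (Psph) and 0.31 (Eprs), short of 0.5 in either direction.

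All 41 members are accounted for. Of each pathway list, up to 4 called genes with the lowest p are named. The members and all lists were chosen with earlier results of these data known. Coordinates are from GENCODE M21 and promoters from RefSeq, GRCm38.p6.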

Additional observations from a re-analysis of the deposited data

How the results depend on the processing

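None of the 27 called members changed sign in any alternative run. RLE scaling, no filter on low counts and robust fitting gave 27, 27 and 28 called members, upper-quartile scaling 26 and DESeq2 23. Genes called over the whole table numbered 4741 in the main analysis, 2866 with DESeq2, 2158 under limma on log2(TPM + 1), 2099 on log2(TPM + 0.1) and 0 on log2(TPM + 1) with no filter, where 4506 genes had an unadjusted p under 0.05. With both pseudocounts the TPM scale called 12 members (4 lower), 1 of the other amino-acid enzymes, 0 transporters and 0 tRNA synthetases. It called 1 gene of the eIF2 list, 6 of the other ATF4 targets, 0 of the further cytosolic synthetases, 1 mitochondrial synthetase and 1 unfolded-protein gene, and, with 0.1, 4 of the further transporters and sensors. With no filter, limma on log2(TPM + 1) called 0 members and 0 genes of every list, 19 members having an unadjusted p under 0.05. DESeq2 called 3 genes of the eIF2 list, 3 further cytosolic synthetases and 1 mitochondrial one.

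Leaving out 1 library at a time gave 10 to 16 lower members, 6 to 10 stress regulators, 2 to 8 tRNA synthetases, 3 to 6 genes of the eIF2 list, 4 to 6 further cytosolic synthetases, 1 to 5 mitochondrial synthetases and 3 to 5 unfolded-protein genes. The lone library of a group is then assumed to vary like the others. Signs turned only for uncalled members. Eif4ebp1 was at -0.0018 with no filter, at -0.0161 to -0.0162 on the TPM scales and at -0.0659 to 0.0874 without 1 library. Slc3a2 was at 0.0088 with upper-quartile scaling, 0.0405 and 0.0409 on the TPM scales and -0.0881 to 0.0488 without 1 library. Slc7a1 was at -0.0031 with no filter and -0.0842 to 0.1079 without 1 library, and Slc38a2 at 0.0107 with upper-quartile scaling and 0.0317 and 0.0319 on the TPM scales. Without 1 library Psph ranged from -0.3884 to 0.0904 and Sars from -0.0673 to 0.1324.

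Deviations of same-numbered libraries correlated at -0.0116 across genes, so these libraries showed no shared shift. This cannot tell whether they were grown or prepared together, which the labels do not say. With the replicate block 28 members (12 higher, 16 lower), 5006 genes of the table and 5 mitochondrial synthetases were called.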
